A study of Mus musculus with 39 samples.

Results

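Fractions 14 and 15 of sucrose gradients of mouse liver lie between the middle and the dense zone of the profile, and their RNAs were compared with those of the 4 fractions around them, 12 and 13 on the lighter side and 16 and 17 on the denser side. Livers of wild type FVB female mice, without treatment and of an age not given in the sources used here, were broken with beads in buffer without detergent, nuclei were spun out, and the lysate was sedimented through a continuous sucrose gradient and sequenced fraction by fraction as total RNA after depletion of ribosomal RNA. Of the 39 libraries of the series, 12 belong to these fractions, 6 in gradient 1 and 6 in gradient 2, so the center is represented by 4 libraries and the flanks by 8. The 2 gradients, which the study describes as independent biological gradients, were the replicates, and each fraction of a gradient is a single library. Genes were chosen as those present in the tables of both gradients with a mean TPM of at least 1 over the 12 libraries, which kept 11008 of 13230 genes. TPM is the length-corrected share of a gene's transcripts in a library, scaled so that every library has the same total.

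The size of an RNA, its load of ribosomes, the proteins bound to it and the membranes it is attached to all act on how far it sediments. Because no detergent was used, mRNAs of secreted and membrane proteins can enter the gradient still attached to pieces of endoplasmic reticulum (ER), while mRNAs of cytosolic proteins travel mainly as free messenger particles or polysomes. Equal masses of RNA went into every library, so a TPM gives the share of an RNA among the RNAs of its fraction and not its amount there. Fewer copies of one RNA and more of others cannot be told apart.

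The difference between center and flanks was taken within each gradient as the mean of log2(TPM + 1) over fractions 14 and 15 minus the mean over fractions 12, 13, 16 and 17. Both sets of fractions have the same mean position, so a steady rise or fall along the gradient gives 0. A positive value arises from a peak, but also from a rise that levels off or a fall that steepens, and a negative value from a dip, a fall that levels off or a rise that steepens. For this reason the steps from each flank are given beside the difference.

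The 12 libraries held between 10660 and 11250 genes above 1 TPM, and the 50 most abundant genes took 27.7 to 34.1% of each. Pearson's r of log2(TPM + 1) across genes was 0.977 to 0.988 between neighbouring fractions of a gradient and 0.951 to 0.965 between the same fraction of the 2 gradients. The 10 hepatocyte markers were abundant throughout, with a summed level of 16870 to 29510 TPM in the center libraries and 14030 to 38130 TPM in the flanking ones. The 11 Kupffer cell markers summed to 91.4 to 122 TPM in the center and 89.5 to 139 TPM in the flanks, the 10 sinusoidal endothelial markers to 35.0 to 62.1 and 42.3 to 60.3 TPM, the 9 stellate cell markers to 32.2 to 45.0 and 29.99 to 46.0 TPM, and the 4 cholangiocyte markers to 4.35 to 6.65 and 3.72 to 8.26 TPM. The 6 erythroid markers summed to 191 to 281 TPM in the center and to 167 to 486 TPM in the flanks, with the highest values in fraction 12. No marker gene of any of these 6 cell types passed the test of center against flanks. The 45S ribosomal RNA precursor gene Rn45s remained at 16210 to 54250 TPM, with no order along the fractions.

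Few RNAs passed the test of fractions 14 and 15 against their flanks. In simulated sets the test recovered 0.55% of differences of 0.25 and 94.2% of those of 1, so small differences would mostly be missed. The difference passed the test (limma, adjusted p under 0.05) for 23 of 11008 genes (0.209%), 13 higher and 10 lower in the center, and 19 of the 23 were RNAs shorter than 200 bases. The filter on mean TPM was met only through the zone where the RNA was high by 2 of the 13, with a flank mean below 1, and by 6 of the 10, with a center mean below 1, so these 8 had to differ. At the level of gene groups, the medians of the lists for proteasome subunits, fatty acid oxidation, the tricarboxylic acid cycle, glycolysis and the urea cycle were 0.06 to 0.15 on the log2 scale, and that for sterol and fatty acid synthesis was -0.01. Apolipoproteins, cytochromes P450, complement factors, plasma carriers, carboxylesterases, serpins, the translocon and ER folding factors had medians of -0.14 to -0.08, lysosomal proteins of -0.06 and extracellular matrix of -0.03, whereas ER-Golgi traffic had one of 0.04. No mRNA list had a member among the 23. Over all genes the median difference was -0.001 with quartiles of -0.105 and 0.087, and its sign was shared by the gradients for 57.5% of genes, against 77.5% for the step from the lighter flank and 73.4% for the step from the denser flank. An unadjusted p from limma under 0.05 was found for 1231 genes. Without the gradient as a block no gene passed, and 55 genes had such a p. The count over other settings ranged from 0 to 112, and each of the 23 genes passed in 2 to 15 of the 26 other settings.

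Among mRNAs with mean TPM of at least 10, Gnmt, Psmb6 and Atp5h were among those whose own highest libraries were fractions 14 and 15. When only the 6594 genes of that level were tested, 112 genes passed (1.7%), 75 higher (1.14%) and 37 lower (0.561%). Of these, 5 of the higher and 7 of the lower reached a mean TPM of 10 only through the zone where they were high, and so had to differ. Of the 75, 62 had an annotated coding sequence, with a median length of 633 bases, and the center mean lay above both flank means in both gradients for 43 of these 62. Their differences ranged from 0.28 to 2.44 with a median of 0.34 on the log2 scale. The genes in the next 3 paragraphs that are not among the named genes of the rule were chosen after their values were seen.

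The gene Atp5h, whose product is the peripheral stalk subunit d of mitochondrial ATP synthase, gave one of the clearest peaks. In gradient 1 it was at 1921 and 2020 TPM in fractions 14 and 15, against 1575 and 1819 TPM in fractions 12 and 13 and 1510 and 1290 TPM in fractions 16 and 17. In gradient 2 the center held 2109 and 2038 TPM, the lighter flank 1590 and 1898 TPM and the denser flank 1517 and 1271 TPM. Both center libraries lay above all 4 flanking libraries in each gradient. The difference was 0.39 ± 0.06 (SE, n = 2 gradients), with an adjusted p from limma of 0.060 over all genes and 0.00709 over the genes with mean TPM of at least 10. Other subunits of the same enzyme, which are named after their values were seen, varied. The delta subunit Atp5d differed by 0.34 ± 0.06 and the membrane ring subunit Atp5g3 by 0.30 ± 0.06, both passing only at the stricter filter (adjusted p from limma 0.0279 and 0.0321). The subunit e gene Atp5k, with its far shorter coding sequence, went the other way, at -0.30 ± 0.06 (adjusted p from limma 0.0422 at that filter), and it went from 1038 TPM in fraction 12 to 331 TPM in fraction 17 of gradient 1 and from 1859 to 663 TPM in gradient 2. The catalytic subunit Atp5b was at 2981 TPM in fraction 12, at 4402 TPM in fraction 15 and at 4337 and 4429 TPM in the denser flank of gradient 1, which gave a difference of 0.12 ± 0.06 with an adjusted p of 0.48.

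Gnmt, the glycine N-methyltransferase that is among the most abundant liver enzymes, reached 6713 and 7761 TPM in fractions 14 and 15 of gradient 1, with 5293 and 5598 TPM on the lighter side and 6470 and 6035 TPM on the denser side. In gradient 2 it reached 9800 and 10123 TPM, with 6616 and 8386 TPM on the lighter side and 8463 and 7284 TPM on the denser side. The center was again above every flanking library within each gradient, although gradient 2 as a whole ran higher than gradient 1. The difference was 0.34 ± 0.06 (adjusted p from limma 0.089 over all genes and 0.0102 at the stricter filter). The peroxiredoxin Prdx6, which reduces peroxides, stood at 1076 and 1135 TPM against 807 to 982 TPM in gradient 1 and at 1105 and 1068 TPM against 809 to 980 TPM in gradient 2. The peptidyl-prolyl isomerase Ppia differed by 0.30 ± 0.06, the glutathione transferase Gsto1 by 0.37 ± 0.06, and the actin-severing protein Cfl1 by 0.33 ± 0.07, and all passed at the stricter filter only. The myosin light chains Myl12a, Myl12b and Myl6 differed by 0.36 ± 0.07, 0.33 ± 0.07 and 0.28 ± 0.06 and passed there as well, but nearly all of this lay on the dense side, with steps of 0.63, 0.59 and 0.67 there and of 0.09, 0.07 and -0.11 on the light side. Myl6 held 1767 and 2007 TPM in the lighter flank of gradient 1, 1790 and 1680 TPM in the center, and 1207 and 1128 TPM in the denser flank. The linker histones Hist1h1c and Hist1h1d differed by 0.33 ± 0.07 and 0.36 ± 0.08 and also passed at the stricter filter, as did Hist1h2ac.

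**Figure D1:**
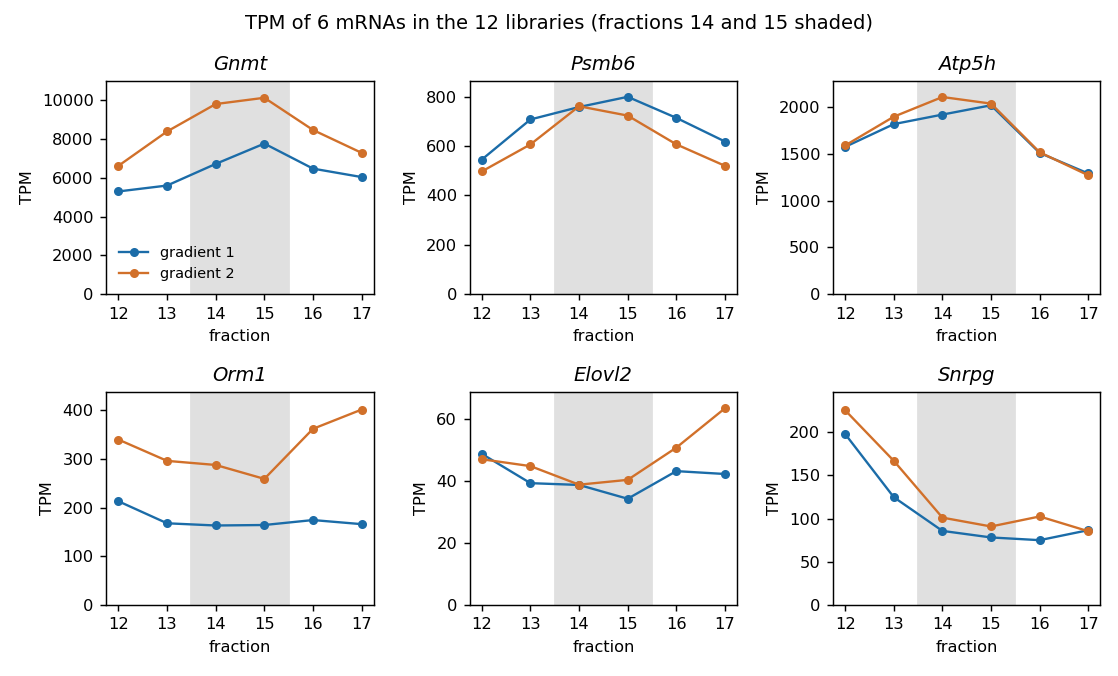
TPM of 6 mRNAs (vertical axes from 0) against fraction number in gradient 1 (blue) and gradient 2 (orange), each point a single library, with fractions 14 and 15 shaded. Gnmt, Psmb6 and Atp5h have their highest libraries in the shaded band, Orm1 and Elovl2 their lowest, and Snrpg falls from fraction 12 and levels off.

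The mRNAs that were lower in the center at the stricter filter had mostly short coding sequences, and few of them dipped. Of the 37 genes, 29 had an annotated coding sequence, with a median of 324 bases and 19 of them under 400 bases. The center mean lay below both flank means in both gradients for only 6 of these 29, and for 12 of them the profile fell from flank to center to flank in both gradients. Snrpg, which encodes the small spliceosomal protein G, was at 198 and 125 TPM in fractions 12 and 13 of gradient 1, at 85.7 and 78.1 TPM in fractions 14 and 15, and at 74.9 and 86.5 TPM in fractions 16 and 17. In gradient 2 the same fractions held 226 and 167, then 101 and 90.8, then 102 and 85.3 TPM. Its difference of -0.47 ± 0.07 (adjusted p from limma 0.058 over all genes, 0.0068 at the stricter filter) thus came from a step of -0.97 on the light side and of 0.03 on the dense side. The spliceosomal Lsm7, the complex III hinge protein Uqcrh, the mitochondrial ribosomal proteins Mrpl33 and Mrpl52 and the peroxidase Gpx4 were likewise steeper on the light side, with steps there of -0.98, -0.87, -0.86, -0.89 and -0.82. Pcbd2, a pterin dehydratase, fell from 89.1 to 30.98 TPM between fractions 12 and 15 of gradient 1, with 25.4 and 23.8 TPM in the denser flank, and had a difference of -0.42 ± 0.08 (adjusted p 0.14 over all genes). Psmg4, a proteasome assembly chaperone, was at 16.7 and 13.8 TPM against 31.2, 24.1, 15.6 and 16.2 TPM in gradient 1, with a difference of -0.55 ± 0.10 (adjusted p 0.12).

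Counting shapes over all 11008 genes, the center mean lay above both flank means in both gradients for 707 genes (6.42%) and below both for 501 (4.55%). Another 3656 genes fell and 1721 rose through the 3 zones in both gradients, and 797 peaked in one gradient and dipped in the other. The difference was positive in both gradients for 3334 genes and negative in both for 2993. By definition these counts include the genes with a peak or a dip in both gradients. A stricter count asked that both center libraries lie beyond all 4 flanking libraries in each gradient. This held for 93 genes above (0.845%) and 27 below (0.245%), and for none of the 23 genes that passed the test. The count above was 40 when gradient 2 was read 1 fraction lighter and 16 when it was read 1 fraction denser.

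The 27 genes with every center library below the flanks included 10 with mean TPM of at least 10, and these are named here after their values were seen. They were the fatty acid elongase Elovl2, the acute-phase plasma protein Orm1, the coagulation factor F5, the carboxylesterase Ces1e, the mannose 6-phosphate receptor M6pr, the transporter Slc16a12, the integral membrane protein Itm2b, and Serinc3, Tmem176b and Tmem167b, which also encode membrane proteins. Elovl2 was at 38.8 and 34.3 TPM in the center of gradient 1 against 39.4 to 48.8 TPM in its flanks, and at 38.9 and 40.4 TPM against 44.9 to 63.6 TPM in gradient 2. Its difference was -0.30 ± 0.08. Orm1 was at 163 and 164 TPM against 166 to 213 TPM in gradient 1, where the groups were separated by a narrow margin, and at 287 and 259 TPM against 296 to 401 TPM in gradient 2. Itm2b was at 188 and 185 TPM against 197 to 264 TPM, and at 315 and 311 TPM against 318 to 385 TPM. None of the 10 passed the test over all genes, with adjusted p from limma of 0.24 for Elovl2, 0.295 for Orm1 and 0.32 for Itm2b.

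Gene lists were drawn up for protein complexes, pathways and compartments, and 40 of them held mRNAs. The 2 gradients shared the sign of the median difference for 25 of the 40, positive for 15 and negative for 10. The signs differed between compartments. Of the 14 cytosolic lists 10 had a positive median in both gradients and none a negative one, while of the 11 lists of the secretory pathway 9 had a negative median in both gradients and none a positive one. The mitochondrial lists were divided, with 3 of 6 positive and 1 negative, and of the 8 nuclear lists 1 was positive. These lists were composed with earlier results of these data known, so the pattern is a description and carries no test.

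**Figure D2:**
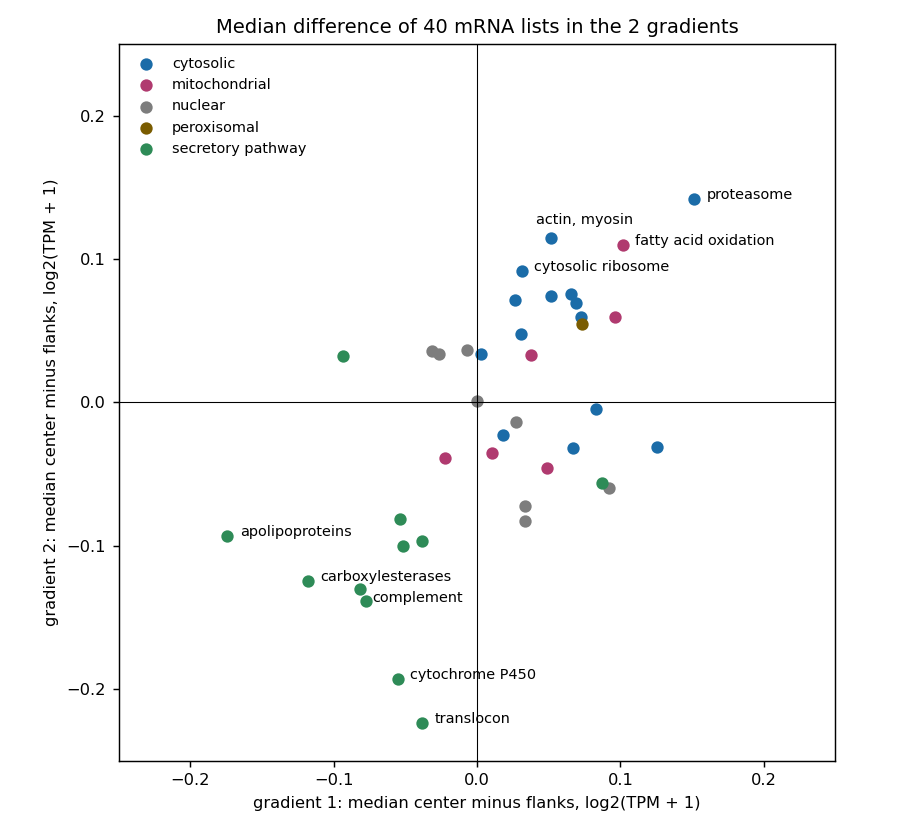
Median difference between center and flanks on the log2(TPM + 1) scale for 40 mRNA lists, gradient 1 on the horizontal axis and gradient 2 on the vertical axis, one point per list, coloured by the compartment of the encoded proteins. Most cytosolic lists lie in the upper right and 9 of the 11 secretory pathway lists in the lower left, and proteasome subunits are farthest to the upper right at 0.15 and 0.14.

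Proteasome subunits, which form the particle that degrades ubiquitin-tagged proteins, had the highest median difference of the 40 lists, 0.15 in gradient 1 and 0.14 in gradient 2. Of the 38 members tested, 29 had a positive difference in both gradients and none a negative one in both, against 3334 and 2993 of all 11008 genes. None passed the test over all genes, and 5 of 38 were higher at the stricter filter, where 1.14% of genes were, namely the beta-ring subunits Psmb2, Psmb3, Psmb4, Psmb6 and the immunoproteasome subunit Psmb8. Psmb6 was at 757 and 799 TPM in the center of gradient 1 against 545, 707, 713 and 618 TPM in fractions 12, 13, 16 and 17, and at 760 and 723 TPM against 497, 606, 606 and 519 TPM in gradient 2. This peak of 0.35 ± 0.07 left no overlap between center and flanks in either gradient. Psmb3, with a difference of 0.34 ± 0.06, was at 433 and 505 TPM, then 689 and 848 TPM, then 828 and 795 TPM through the zones of gradient 1. In gradient 2 it was at 343 and 502 TPM, then 634 and 647 TPM, then 613 and 567 TPM, so its center was above all flanking libraries in gradient 2 only. Psmb5 differed by 0.28 ± 0.06 with an adjusted p of 0.16.

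The proteasome median came mostly from the light side. Against fractions 12 and 13 the center was higher for 27 of 38 subunits and lower for none, with medians of 0.34 and 0.29 in the 2 gradients, whereas 8.75% of all genes were called higher at that step and 19.2% lower. Against fractions 16 and 17 the medians were 0.00 in both gradients, with 3 subunits higher and 2 lower, where 8.3% and 1.96% of all genes were. Quantile normalization turned this split to 4 higher and 8 lower, with a median of -0.06, where all genes had shares of 5.94% and 5.67%. Psma5, an outer-ring subunit, was called at both steps, at 0.61 ± 0.07 against the lighter flank and -0.46 ± 0.07 against the denser flank (adjusted p from limma 0.0092 and 0.038), which is a continuing rise. Psmb9, Psmd8 and Psmd9 were higher in the center than in the denser flank by 0.65 ± 0.09, 0.52 ± 0.07 and 0.60 ± 0.09. The subunits Psma1, Psmb1, Adrm1 and Psmc5 differed between center and all flanks by 0.05 ± 0.08, 0.19 ± 0.07, 0.14 ± 0.07 and 0.17 ± 0.07. Psma1 was at 246 and 300 TPM in the center of gradient 1, between 177 and 172 TPM on the lighter side and 345 and 307 TPM on the denser side, and its 2 gradients gave opposite signs (0.19 and -0.08).

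Mitochondrial fatty acid oxidation and ketogenesis, by which liver turns fatty acids into ketone bodies, had medians of 0.10 and 0.11, with 19 of 21 members positive in both gradients and none negative in both. Against the denser flank the medians were -0.17 and -0.18. In both gradients 16 members rose through the 3 zones, where 15.6% of all genes did, and 4 peaked, where 6.42% did. None of the members passed over all genes and 3 were higher at the stricter filter (1.14% of the genes there). The electron transfer flavoprotein subunit Etfb stood at 2857 and 3546 TPM in the center of gradient 1 against 2032, 2572, 3140 and 3099 TPM, and at 3000 and 3078 TPM against 1639, 2171, 2409 and 2169 TPM in gradient 2. Its center and flank libraries overlapped in gradient 1 and were separate in gradient 2. Echs1, an enoyl-CoA hydratase, differed by 0.29 ± 0.06. The center was above the lighter flank for 19 of the 21 members, among them Acadvl (0.52 ± 0.06), and below the denser flank for 1, Bdh1 (-0.36 ± 0.07). At these steps 8.75% of all genes were called higher than the lighter flank and 1.96% lower than the denser flank. With quantile normalization 5 were below the denser flank and 1 above it, where 5.67% and 5.94% of all genes were.

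The lists for glycolysis and for the urea cycle, the latter with mitochondrial members such as Otc, had members called at both steps. Among 17 glycolysis and gluconeogenesis genes the center was above the lighter flank for 15 (8.75% of all genes) and below the denser flank for 8 (1.96% of all genes), with medians of 0.53 and 0.44 and of -0.38 and -0.33 in the 2 gradients. Gapdh and Ldha were called at both steps, by 0.68 ± 0.06 and -0.48 ± 0.08 and by 0.62 ± 0.06 and -0.45 ± 0.07. What remained after these steps cancelled was small, 0.07 and 0.08, with Tpi1 at 0.28 ± 0.07 (adjusted p 0.21). Of 26 genes of the urea cycle and amino acid breakdown, 21 were above the lighter flank and 14 below the denser flank, including Arg1, the last enzyme of the urea cycle (0.60 ± 0.06 and -0.51 ± 0.08), and the median difference between center and flanks was 0.05 and 0.07. Gnmt, described above, departed from its list, since the center exceeded the lighter flank by 0.41 and the denser flank by 0.28. The tricarboxylic acid cycle list had 13 of 18 members above the lighter flank, 2 below the denser flank and a median difference of 0.10 and 0.06. Idh2 differed by 0.21 ± 0.07 (adjusted p 0.29). Peroxisomal proteins had medians of 0.07 and 0.05, with Amacr at 0.19 ± 0.07 and Agxt at 0.17 ± 0.06, none of 30 members passing.

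Ribosomal protein mRNAs, which are short, abundant and carry a shared control element at their start, fell through the zones. Of 84 cytosolic ribosomal protein genes 40 were lower in the center than in the lighter flank and 3 higher. At that step 19.2% of all genes were called lower and 8.75% higher. Against the denser flank 41 of the 84 were higher in the center and none lower, where 8.3% of all genes were called higher and 1.96% lower. The medians were -0.29 and -0.23 on the light side and 0.31 and 0.42 on the dense side. Since the dense step was the larger, the center lay above the line between the flanks, by 0.03 and 0.09. Rps10 had a difference of 0.23 ± 0.06 between center and all flanks (adjusted p 0.22). The mitochondrial ribosomal proteins (44 of 78 lower and 6 higher on the light side, 39 higher and 1 lower on the dense side) and the subunits of respiratory complex I (24 of 37 lower and 6 higher, then 21 higher and none lower) fell alike. The 6 of 78 mitochondrial ribosomal proteins that were higher on the light side are near the share over all genes. With quantile normalization the mitochondrial ribosomal proteins were split on the light side into 40 lower and 12 higher. There 14.4% and 15.4% of all genes were, so the 12 are at the share over all genes. The differences between center and flanks were 0.04 and 0.03 for these and 0.01 and -0.04 for complex I.

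The mRNAs of secreted and ER proteins lay slightly below the average of their flanks at fractions 14 and 15. Over the 325 genes of the 11 secretory pathway lists the median difference was -0.06 in gradient 1 and -0.12 in gradient 2. Of these genes 175 were negative in both gradients and 41 positive in both, against 2993 and 3334 of all 11008 genes. The center mean lay below both flank means in both gradients for 47 of the 325 (14.5%), against 4.55% of all genes, and above both for 6. None of the 325 passed the test, also at the stricter filter. The exceptions in sign were ER-Golgi traffic, with medians of 0.09 and -0.06 and 15 of 36 positive in both gradients against 8 negative, and extracellular matrix, with -0.09 and 0.03 over 8 genes. Secreted proteins outside the lists did pass at the stricter filter. The major urinary protein genes Mup1, Mup9 and Mup18 and the hepcidin paralog Hamp2 had differences of -0.31 ± 0.06, -0.29 ± 0.07, -0.73 ± 0.20 and -0.34 ± 0.08, and Mup14 one of 0.58 ± 0.09. Mup genes are near-identical copies that share reads, so their separate values are uncertain. The sign of Mup14 turned to -0.29 with fractions 12 and 17 as flanks and to -0.04 with gradient 2 read 1 fraction lighter, and that of Mup18 to 0.03 with gradient 2 read 1 fraction denser. Apolipoproteins, the protein part of plasma lipoproteins, had medians of -0.17 and -0.09, with 12 of 14 negative in both gradients and none positive in both. Apoa2 and Apom differed by -0.20 ± 0.06 and -0.23 ± 0.08 (adjusted p from limma 0.29 and 0.33). The cytochromes P450, which oxidise drugs and steroids on the ER membrane, had medians of -0.06 and -0.19, with 33 of 56 negative in both gradients and 10 dipping in both. Cyp2c50 and Cyp2c37 differed by -0.28 ± 0.09 and -0.23 ± 0.08. Complement and coagulation factors (medians -0.08 and -0.13, 27 of 41 negative in both gradients), plasma carriers, inhibitors and acute-phase proteins (-0.08 and -0.14, 18 of 27), carboxylesterases (-0.12 and -0.12, 7 of 12) and ER folding and degradation factors (-0.05 and -0.10, 19 of 36) followed. Apcs, the serum amyloid P component, differed by -0.30 ± 0.09, the retinol carrier Rbp4 by -0.17 ± 0.06, Azgp1 by -0.22 ± 0.07, the complement regulator Cfi by -0.22 ± 0.08 and the ER chaperone Hspa5 by -0.18 ± 0.08.

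The steps of these genes differed between the gradients. The median step of the 325 genes was -0.07 and -0.01 on the light side and -0.04 and -0.23 on the dense side in gradients 1 and 2, and that of the cytochromes P450 on the dense side was 0.03 and -0.30. Of the 325 genes 18 were higher and 26 lower in the center than in the lighter flank, where 8.75% of all genes were higher and 19.2% lower. Against the denser flank 7 were higher and 11 lower, where 8.3% and 1.96% of all genes were. Quantile normalization gave 31 higher and 19 lower on the light side, with 15.4% and 14.4% of all genes, and 5 higher and 33 lower on the dense side, with 5.94% and 5.67% of all genes. Rbp4 was lower in the center than in the denser flank by 0.51 ± 0.07 with an adjusted p from limma of 0.038, and Apoa1, the main protein of high-density lipoprotein, went from 0.26 ± 0.07 on the light side (adjusted p 0.050) to -0.43 ± 0.07 on the dense side (0.038). The abundant Alb was at 2737 and 2758 TPM in the center of gradient 1 and 2562 to 3232 TPM in the flanks, with a difference of -0.11 ± 0.06, and Apob had one of -0.13 ± 0.08. Fn1, which encodes fibronectin, was at 38.6 and 35.4 TPM against 35.4 to 46.0 TPM in gradient 1 and differed by -0.07 ± 0.08. The levels against each flank thus depended on scaling. The median step of the 325 genes on the light side was -0.04 where that of all genes was -0.09, and quantile normalization moved these to 0.06 and 0.03. On the dense side the median of the 325 genes went from -0.13 to -0.22, whereas the difference between center and flanks was -0.09 before and -0.08 after.

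Medians were also taken among genes of like coding length. Nothing else was matched, and a part of length in the differences was not tested. With coding sequences of at least 1000 and under 2000 bases, the 176 secretory pathway genes had medians of -0.06 and -0.13 and the 455 genes of the cytosolic, mitochondrial, peroxisomal and nuclear lists of 0.06 and 0.01, with median coding lengths of 1481 and 1476 bases.

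Coding length went along with both steps. The 568 genes with coding sequences under 400 bases had a median step of -0.60 and -0.59 from the lighter flank to the center. They stood 0.36 and 0.31 above the denser flank. On the light side 392 of them were called lower and none higher, where 19.2% and 8.75% of all genes were. The difference of the 568 genes between center and flanks was -0.14 and -0.15, a fall that slows toward the dense side. From 700 bases upward the medians of the difference stayed between -0.01 and 0.04 in both gradients. The genes called lower in the center than in the lighter flank had a median coding length of 777 bases and those called higher of 1269 bases, against 1359 bases over all genes with an annotated coding sequence. On the dense side the genes called higher in the center had a median of 654 bases and those called lower of 1035 bases. The 93 genes with every center library above the flanks had a median of 879 bases and the 27 below of 1191 bases.

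**Figure D3:**
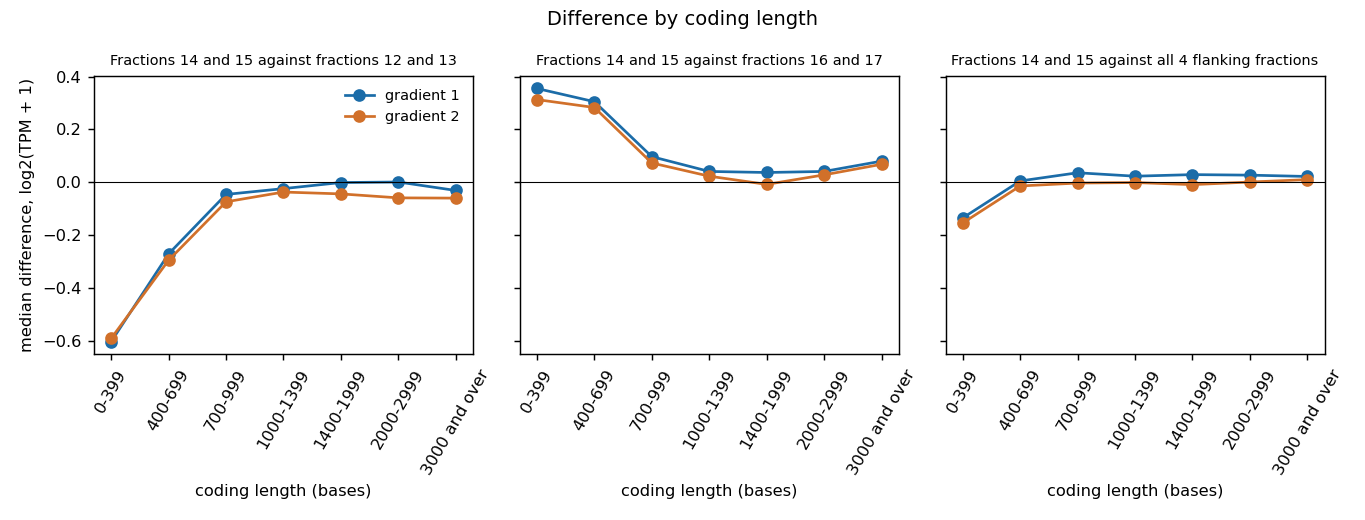
Median difference on the log2(TPM + 1) scale for 7 bins of coding length in bases, for fractions 14 and 15 against fractions 12 and 13 (left), against 16 and 17 (middle) and against all 4 (right), in gradient 1 (blue) and gradient 2 (orange). Short coding sequences step down from the lighter flank (-0.60 and -0.59) and again to the denser flank, and the right panel is near 0 from 400 bases on.

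The steps themselves were widespread. Against the lighter flank 3072 genes passed, 963 higher (8.75% of all genes) and 2109 lower (19.2%) in the center. Against the denser flank 1130 passed, 914 higher (8.3%) and 216 lower (1.96%). Both counts fell to 0 without the gradient as a block, where 1153 and 337 genes had an unadjusted p under 0.05. With quantile normalization, which moved the median step of all genes from -0.09 to 0.03 on the light side and from 0.08 to -0.01 on the dense side, the split was 1694 higher and 1588 lower on the light side and 654 higher and 624 lower on the dense side. Rab GTPases, the switches of vesicle traffic, fell at both steps like other short mRNAs, with 20 of 42 lower and 1 higher on the light side and 14 higher and none lower on the dense side, and medians of the difference between center and flanks of 0.00 and 0.03. Histone genes did the same (29 of 73 lower and 1 higher, then 22 higher and none lower, with -0.03 and 0.04 in the difference). The 270 zinc finger genes had medians of 0.03 and -0.08. In both gradients 14 of them peaked (5.19%) and 18 dipped (6.67%), near the 6.42% and 4.55% of all genes. All comparisons of the center share its libraries, so the counts are set side by side only.

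The RNAs that passed the test over all genes were of another kind. Of the 23 RNAs, 19 were shorter than 200 bases, 3 were longer and 1 had no annotated length. The 19 hold the 8 RNAs that met the filter only through the zone where they were high and 6 copies of the 5S ribosomal RNA gene that stand for a single measurement, so their number is a description and is not set against that of longer RNAs. The 19 are small nucleolar RNAs (snoRNAs), which guide the modification of ribosomal RNA, microRNA hairpins, 5S ribosomal RNA, and Rnu12, a small nuclear RNA. A library of total RNA with paired reads recovers them poorly, and 19 of the 23 genes were listed at 0 TPM in at least 1 of the 12 libraries, as were 224 of all 11008 genes. The number of reads behind these values is not known from the tables used here. The mature sequences of the 4 microRNA loci that passed and had mean TPM of at least 10 are shown because the loci are named by them, with the seed (bases 2 to 8) in capitals, from RefSeq on GRCm38.p6, and no seed was shared.
miR-5125: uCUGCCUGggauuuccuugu
miR-3473f: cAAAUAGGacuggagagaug
miR-6516-5p: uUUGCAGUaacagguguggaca
miR-6516-3p: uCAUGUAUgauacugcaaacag
miR-5133: gCUGGAGCugcggcagcgcag
The value of such a locus comes from reads on the hairpin and does not measure the mature microRNA. The hairpin is 79 bases long for Mir5125, 136 for Mir3473f, 110 for Mir6516 and 77 for Mir5133. Mir5125, Mir3473f and Mir6516 reached a mean TPM of 10 only through the zone where they were high.

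Mir5125, at chromosome 17, 23823291 to 23823369, had a difference of 2.60 ± 0.16. Its mean over the 8 flanking libraries was 0.772 TPM, so it was tested only because of its center libraries, and neither its call nor the size of its rise is independent of that. It was listed at 29.8 and 0 TPM in fractions 14 and 15 of gradient 1 and at 0 and 118 TPM in those of gradient 2, with 6.17 TPM in fraction 13 of gradient 2 and 0 in the other 7 flanking libraries. One center library per gradient carried the whole value, and it was not the same fraction. Mir3473f was at 36.1 and 14.3 TPM in the center of gradient 1 against 0, 0, 12.0 and 6.21 TPM, and at 15.7 and 35.1 TPM against 0, 28.0, 9.73 and 6.45 TPM in gradient 2, a difference of 2.38 ± 0.22. Its center libraries were above all flanking libraries in gradient 1 and overlapped them in gradient 2. Mir5133 was lower by 1.41 ± 0.15, with center libraries at 38.8 and 0 TPM in gradient 1 and at 0 and 60.9 TPM in gradient 2. The highest of its 12 values was thus in a center library, and the direction turned to 0.79 with gradient 2 read 1 fraction denser and to 0.29 without fraction 14 of gradient 2. Mir6516 had a difference of -1.97 ± 0.22, from 6.88 and 0 TPM against 4.47 to 46.8 TPM, and from 0 and 16.6 TPM against 0 to 33.8 TPM, and turned to 0.20 with gradient 2 read 1 fraction denser.

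The snoRNA gene Snord104 is shown because its difference was the largest among snoRNAs called higher, with the letters TGATGA of the C box and CTGA of the D box in capitals wherever they occur on the transcript strand, from GENCODE M21 at chr11:106500993-106501062 on the plus strand of GRCm38.
Snord104: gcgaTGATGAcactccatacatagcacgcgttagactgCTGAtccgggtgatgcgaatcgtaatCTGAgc
TGATGA occurs in 75.8% and CTGA in all of the 99 annotated Snord transcripts. Snord104 was at 28.0 and 81.0 TPM in the center of gradient 1 against 8.51, 62.7, 0 and 0 TPM, and at 56.7 and 51.9 TPM against 14.9, 5.57, 20.2 and 25.7 TPM in gradient 2, a difference of 2.56 ± 0.27. The groups were separate in gradient 2 and overlapped in gradient 1. Of the 39 small nucleolar and Cajal body RNAs tested 2 were called higher and 5 lower, where 0.209% of all genes were called. Of these 7, Snora81, Snord91a, Snora30 and Snord42a met the filter only through the zone where they were high and so had to differ. Snord91a was listed at 0 TPM in all 4 center libraries, against 17.1, 159, 7.88 and 0 TPM in gradient 1 and 4.49, 12.0, 3.65 and 0 TPM in gradient 2. Snora30 was likewise at 0 in all 4 and Snora28 in 3 of 4, with 4.44 TPM in the remaining one. For both Snord91a and Snora28 the highest level was in fraction 13 and fraction 17 was at 0 in both gradients, while fraction 16 held up to 7.88 TPM of the former and up to 19.4 TPM of the latter. Scarna6, a Cajal body RNA, was lower by 1.05 ± 0.09, with 19.8 and 4.42 TPM in gradient 1 and 27.8 and 6.89 TPM in gradient 2, fraction 15 being the lowest library of each gradient.

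**Figure D4:**
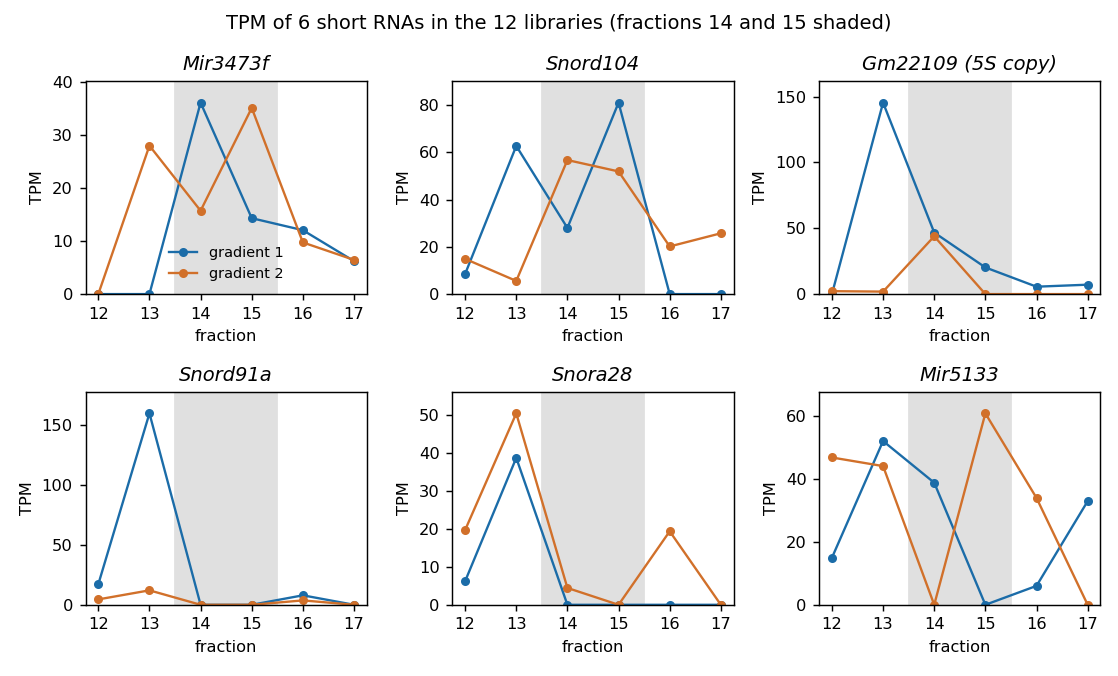
TPM of 6 short RNAs (vertical axes from 0) against fraction number in gradient 1 (blue) and gradient 2 (orange), one library per point, with fractions 14 and 15 shaded. Shaded libraries of the same RNA can lie far apart, as for Mir5133 with 38.8 and 0 TPM in gradient 1 and 0 and 60.9 TPM in gradient 2.

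A single measurement stood for 6 of the 13 genes called higher. Gm22109, Gm22291, Gm23284, Gm25018, Gm25212 and Gm26391 are copies of the 5S ribosomal RNA gene on chromosome 8 with 1 common sequence of 119 bases, and their values were identical in all 12 libraries. Reads cannot be assigned among the copies. Gm22109 was at 46.7 and 20.2 TPM in the center of gradient 1 and at 43.9 and 0 TPM in that of gradient 2. The flanks held 0, 145, 5.62 and 7.14 TPM and 2.22, 1.88, 0 and 0 TPM, so the highest library of all was fraction 13 of gradient 1. The difference was 1.85 ± 0.12.

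The remaining genes called higher with mean TPM of at least 10 were Tmem254b, Gm44504 and Isg15. Tmem254b differed by 2.44 ± 0.31, but its near-identical copies Tmem254a and Tmem254c share its reads, and Tmem254c differed by -1.66 ± 0.32 (adjusted p 0.14). The 3 copies summed to 74.2 to 88.7 TPM in the center libraries and to 70.8 to 110 TPM in the flanks. Gm44504 was at 24.5 and 28.3 TPM in the center of gradient 1, at 26.7 and 25.05 TPM in the lighter flank and at 9.81 and 10.1 TPM in the denser flank, so its difference of 0.63 ± 0.09 was a step on the dense side (1.19) with 0.07 on the light side. Isg15, the interferon-induced ubiquitin-like protein, at chromosome 4, 156199424 to 156200818, had a center mean above both flank means in both gradients, by 0.80 on the light and 0.31 on the dense side. It was at 42.5 and 48.6 TPM against 19.9, 30.3, 44.6 and 35.4 TPM in gradient 1 and at 58.4 and 55.1 TPM against 25.2, 44.2, 42.0 and 41.2 TPM in gradient 2. The libraries overlapped in gradient 1 and were separate in gradient 2, and the difference of 0.56 ± 0.08 had an adjusted p from limma of 0.0498. Of the 26 other settings Isg15 passed in 3 and Gm44504 in 2.

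The 6 genes that passed with mean TPM under 10 were Mir15a, Mir6972, Rnu12, Snora30, Snora81 and Snord42a. Only Snora81 was higher, with 9.95 TPM in fraction 15 of gradient 1, 6.37 TPM in fraction 14 of gradient 2 and 0 in the other 10 libraries. It was thus tested only because of center libraries. Mir15a, Mir6972, Snora30 and Snord42a were at 0 TPM in every center library. Rnu12 was at 2.67 TPM in fraction 14 of gradient 2 and at 0 in the rest of the center. These RNAs met the filter only through the flanks and so had to differ. The genes with the smallest p among those lower in the center that did not pass, beside Snrpg, Psmg4, Pcbd2 and Tmem254c, were the loci Mir1191 (-1.17 ± 0.17, adjusted p 0.052), Mir1932 (-2.06 ± 0.32, 0.062) and Snora68 (-1.90 ± 0.32, 0.089).

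The same contrast was also made at other places in the gradient, with 2 center fractions against 2 on each side, over 11739 genes with mean TPM of at least 1 in fractions 4 to 19. With fractions 6 and 7, 7 and 8, and 8 and 9 as the center, 1900, 2105 and 2641 genes passed. The count was 773 for fractions 9 and 10, 443 for 10 and 11, and 0 for every center from fractions 11 and 12 to 16 and 17, fractions 14 and 15 included, by limma with this wider set of genes, against 23 in the set chosen on the 12 libraries. In these 6 windows 672 to 2329 genes had an unadjusted p under 0.05, with 981 at fractions 14 and 15. The median size of the difference went from 0.18 at fractions 6 and 7 to 0.10 at fractions 14 and 15, and the share of genes with the same sign in both gradients from 74.4% to 57.3%. Fractions 14 and 15 did not stand out from their neighbours in either measure, since fractions 13 and 14 gave 0.09 and 60.6% and fractions 15 and 16 gave 0.09 and 56.8%.

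**Figure D5:**
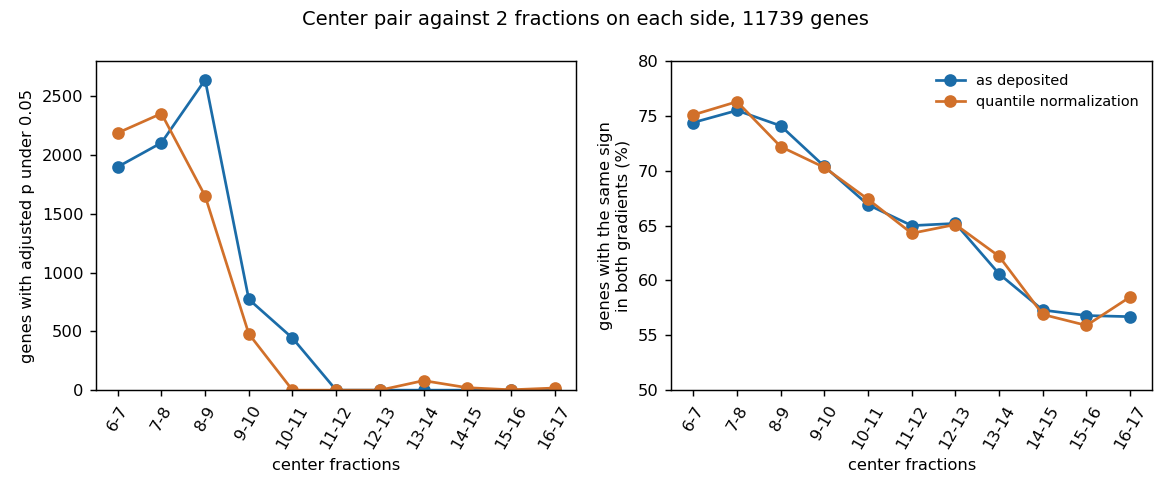
Number of genes with adjusted p under 0.05 (left, axis from 0) and percentage of genes with the same sign in both gradients (right, axis from 50 to 80%) for the center pair named on the horizontal axis against 2 fractions on each side. Values as deposited are in blue and after quantile normalization in orange, and both measures are lower in the dense than in the light part, with 57.3% as deposited at fractions 14 and 15.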

How the data were processed

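Total RNA of each fraction was sequenced after ribosomal RNA depletion with a stranded kit. The TPM values were deposited by the authors, who pseudo-aligned reads to an mm10 RefSeq index with kallisto (bcl2fastq 2.16.0.10 per the submitters' notes; the kallisto version is not given in the sources used here) and the tables used here hold no counts, so depth and counting error are not known from them. TPM is relative within a library, and near-identical genes share reads.

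From there log2(TPM + 1) was averaged per gradient over fractions 14 and 15 and over the flanks. The 4 values of a gene were fitted with limma 3.58.1 in R 4.3.3 (eBayes with trend, two-sided) with gradient as a block, since fractions of a gradient come from 1 lysate, and p-values were adjusted by Benjamini-Hochberg over all genes tested. Deviations of a gradient's center and flank from the mean of the gradients correlated across genes (r = 0.800). With 2 gradients the fit has 1 residual degree of freedom and leans on the spread shared across genes. Tested on 20 simulated sets of 11008 genes with 200 changed, it recovered 0.55%, 39.3% and 94.2% of differences of 0.25, 0.5 and 1, and 19.3%, 10.9% and 7.63% of its calls were false, so adjusted p-values are approximate. SE is limma's.

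Named genes are the 12 largest rises and 12 largest falls that passed, with mean TPM of at least 10 and 1 sign in both gradients, filled up by smallest p, up to 4 members per list by smallest p at that level, and 8 genes whose profiles the study shows. The contrast and gene lists were chosen with earlier results of these data known. Coding and RNA lengths are from GENCODE M21 (10543 and 10954 of 11008 genes), coordinates from RefSeq GRCm38.p6 where not stated. The tool versions were Python 3.11.15, NumPy 2.4.6 and pandas 2.3.3. Alternatives are given in the closing section. Some members of the gene lists and one sequence are not reported here.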

Additional observations from a re-analysis of the deposited data

How the results depend on the processing

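The 23 genes called between center and flanks depended on the processing. There were 0 without the replicate block for the gradient pairing, where 55 genes had an unadjusted p under 0.05, and 0 for each flank taken alone without that block (1153 on the light and 337 on the dense side with such a p). There were 112 for mean TPM of at least 10, 0 with no filter on TPM (995 with an unadjusted p under 0.05), 6 with TPM averaged before the log, 12 without the trend in eBayes, 2 with fractions 13 and 16 and 3 with fractions 12 and 17 as flanks, and 5 and 2 with gradient 2 read 1 fraction denser and lighter. When each of the 12 libraries was left out in turn, the count was 0 to 25, with 0 without fraction 12 of gradient 1, 9 without fraction 13, 3 without 14 and 14 without 15 of that gradient, and 12, 5, 1 and 10 without fractions 13, 14, 15 and 16 of gradient 2. Of 2 fits added after the data were seen, the one with 12 separate libraries and a slope per gradient called 1 gene, Emp3 (-1.19), which is not among the 23, and the one on RNAs of at least 200 bases called 11, of which 3 were among the 23. Mir5133, which ranged from -3.11 to 0.29 when 1 library was left out, reversed to 0.79 with gradient 2 read 1 fraction denser and to 0.29 without fraction 14 of gradient 2, and Mir6516 to 0.20 with the former. Leaving out a whole gradient leaves no test. Dips in both gradients numbered 174 of the 6594 genes with mean TPM of at least 10, against 501 of all 11008. Peaks in both numbered 511 and 707. The share of dips was thus lower at that level and the share of peaks higher. Genes with separate libraries numbered 16 above and 7 below with gradient 2 read 1 fraction denser, and 40 above with it read 1 fraction lighter. With quantile normalization the other windows gave 1652 at fractions 8 and 9, 479 at 9 and 10, 0 at 10 and 11, 81 at 13 and 14, 21 at 14 and 15, 3 at 15 and 16, and 18 at 16 and 17. Where neither fewer genes nor fewer libraries account for such a change, the cause was not tested.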
